A study of Mus musculus with 9 samples.

Results

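Meiotic recombination and synapsis genes were followed in the testes of 9 male mice of the C57BL/6 strain. The 46 gene symbols were chosen by what their products do, not by a measured value, though with earlier results of these data known. They cover the synaptonemal complex, the HORMA domain axis, meiotic cohesin, double-strand breaks, strand exchange and repair, crossover formation, telomere attachment and the control of meiotic RNA. A row was found for 44 of the 46 symbols among the 38674 genes of the table, of which 25173 had a value above 0 in at least 1 animal. Brme1 and Spata22 were not analysed here.

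In meiotic prophase, each chromosome is organised along a protein axis of cohesin and HORMA domain proteins, and programmed double-strand breaks are made in the DNA and repaired on the homologous chromosome. The synaptonemal complex zips the paired axes together, and a few repair events become crossovers that hold the homologs until they separate. In the testis these steps take place in spermatocytes, before the haploid round and elongating spermatids form.

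The study asked what loss of Pfn3, a testis-specific profilin that binds actin, does to the testicular transcriptome. RNA was taken from testis freed of its tunica albuginea in 3 Pfn3+/+ (WT), 3 Pfn3+/– (Het) and 3 Pfn3–/– (KO) animals, and libraries were made with the QuantSeq 3′ kit, which places reads near the 3′ end of a transcript. The mutant alleles are CRISPR/Cas9 deletions made in C57BL/6J zygotes, present in every cell. The study used sexually mature males. Several deletion lines were made, and the line of the sequenced animals is not given in the sources used here. Each deposited value is a gene's count over a size factor that all genes of an animal share, called a normalized count below. They were not divided by transcript length, so the levels of different genes are compared only as counts.

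Each library held 3375546 to 4287335 reads on genes, as counts derived from coverage, and WT animal 1 had the fewest. A count of 3 reads, taken as the detection limit, corresponded to 2.58 to 3.71 normalized counts. Markers of spermatocytes, spermatids, Sertoli cells and Leydig cells were present in all 9 animals, while 5 epididymal genes summed to at most 36.7. WT animal 1 stood apart, with the lowest value of the 9 animals in 27.9% and the highest in 26.1% of 14165 genes, against at most 15.9% and 16.9% in any other animal. Counts over the meiotic genes are therefore also given without it. The 10 spermatocyte markers summed to less in WT animal 1 and Het animal 1, mainly through Ldhc. Ldhc had 799.8 and 1925 in these animals, against 25592 to 36443 elsewhere. Without it the sums of 12367 and 10436 lay within the 9333 to 13224 of the other 7. The 9333 was KO animal 2, and the rest of those 7 ran from 12124 to 13224. Hspa2, another of the 10, had 98.3 in Het animal 1 and 101.6 in KO animal 2, against 2476 to 3416 elsewhere. Ccna1, also of the 10, had 49.5 in WT animal 1, against 134 to 729 elsewhere. Pfn3 itself had 592, 383 and 373 normalized counts in the WT, 136, 339 and 326 in the Het and 74.7, 215 and 279 in the KO animals. All 6 mutant animals were below the 3 WT animals. Where its 3′ reads lie relative to the deletion was not tested, so this level is no check of the genotype labels.

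The 44 genes covered more than 3 orders of magnitude of read count. In all 9 animals, 36 of them stood above 3 reads, and 1, Rad21l, was listed at 0 throughout. The synaptonemal complex genes took 54.4%, 53.8% and 64.2% of the counts of the 44 genes in the WT animals and 54.4% to 56.4% in the KO animals. Syce1 led with a WT mean of 2314 ± 206 normalized counts (SD, n = 3), followed by Smc1b at 1229 ± 229, Sycp2 at 1162 ± 397, Syce2 at 1127 ± 170.0, Syce3 at 1077 ± 308 and Sycp1 at 1070.3 ± 135. The means from Smc1b to Sycp1 differ by less than the larger SD of each pair, so their order is not resolved. At the other end stood Xrcc3 at 14.6 ± 5.08, Terb2 at 7.72 ± 6.96, Rec114 at 6.62 ± 4.61 and Mei4 at 0.644 ± 1.11, the last under the detection limit in every WT animal.

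**Figure D1:**
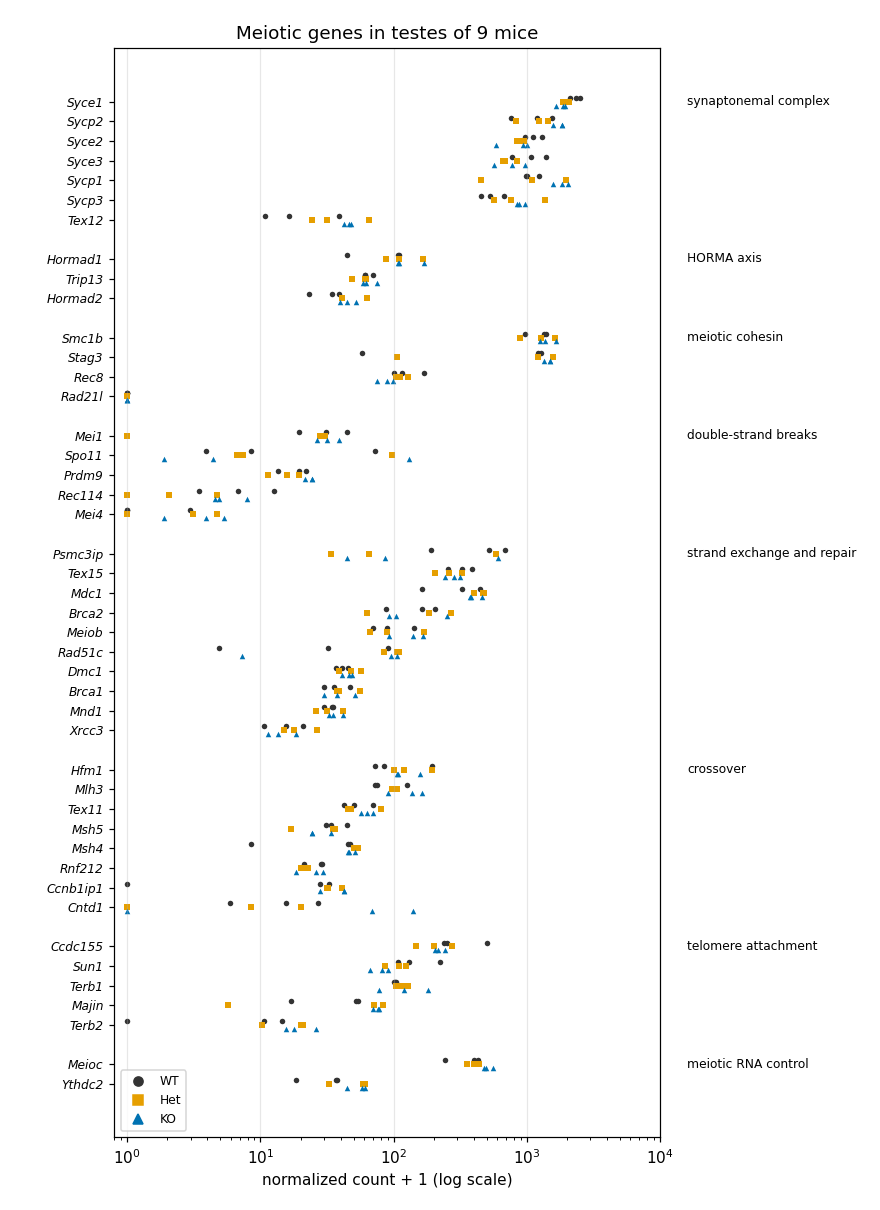
Normalized counts plus 1 (log axis) of the 44 meiotic genes in each of 9 animals, grouped by role and ordered within a role by the WT mean. Syce1 is at the top with 1666 to 2502, Rad21l is at 0 in all animals, and Stag3 shows 2 animals far below the other 7.

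Testes of KO animals gave 0.423%, 0.401% and 0.382% of their reads to the 44 genes, against 0.317%, 0.304% and 0.315% in WT animals and 0.377%, 0.297% and 0.340% in Het animals. All 3 KO animals were thus above all 3 WT animals, and KO animal 3 was only just above Het animal 1. The Wilson 95% intervals, which cover counting error only, ran from 0.299% to 0.323% over the WT libraries and from 0.376% to 0.430% over the KO libraries. A comparison list of further meiotic prophase genes, described below, took 0.363%, 0.474% and 0.466% of all counts in WT animals. It took 0.516%, 0.456% and 0.358% in Het and 0.394%, 0.460% and 0.401% in KO, so KO and WT overlapped in the sum of that list. Mael alone gave 3313, 5678 and 4748 of its 15185, 19346 and 18411 normalized counts in WT. In KO it gave 123, 3496 and 314 of 14516, 15056 and 14686. The share without Mael is not given here, so this overlap does not describe the other genes of the list. Protamines and transition proteins, the mRNAs of elongating spermatids, took 5.60%, 6.11% and 5.90% of all counts in WT, 5.11%, 5.60% and 5.89% in Het, and 5.22%, 3.77% and 5.46% in KO. The 8 round spermatid markers took 0.206% to 0.230% in WT and 0.137% to 0.192% in KO. The KO animals were therefore also all lower than the WT animals in both spermatid lists, whose part in the share of the meiotic genes was not tested. In bulk tissue, fewer cells of a type and less RNA per cell cannot be told apart.

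**Figure D2:**
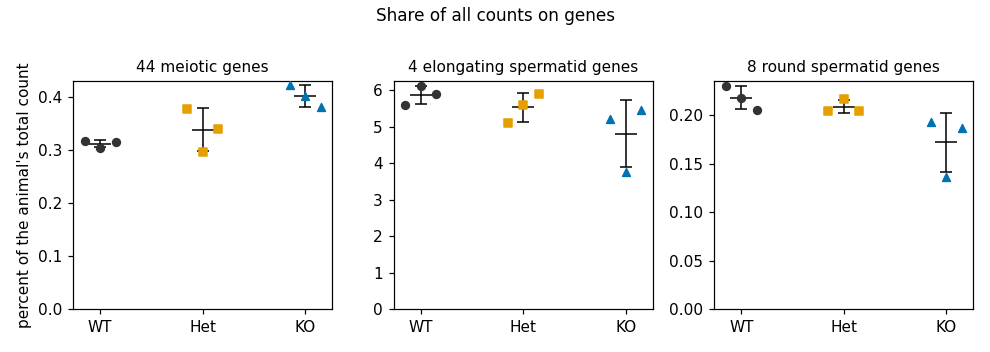
Percent of each animal's total count on the 44 meiotic genes, on 4 elongating spermatid genes and on 8 round spermatid genes; points are animals, bars the mean ± SD of 3. The KO animals lie at 0.382% to 0.423% for the meiotic genes against 0.304% to 0.317% in WT, and below the WT animals in both spermatid panels.

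After division by the size factors the difference was smaller. Summed over the 44 genes, WT animals had 12712 ± 479 normalized counts (SD, n = 3), Het animals 12320 ± 926 and KO animals 14231 ± 1246. The lowest KO sum, 13140.5, lay under the highest WT sum, 13264.

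Between KO and WT, 40 of the 44 genes had 10 normalized counts or more in 3 or more of the 6 animals and were tested, and Mei4, Rec114, Rad21l and Spo11 did not. A gene was called when limma gave an adjusted p under 0.05 and a log2 fold change beyond 1.5 in either direction. None of the 40 was called, with a background of 0.0352% (5 of 14223 genes). None of them was called by edgeR or DESeq2 either, beside 5 and 96 of the 14223 genes. Without adjustment, 4 members were higher in KO at p under 0.05 (10% of 40, against 3.04% of all genes) and 1 was lower (2.5% against 5.03%). For 10 members every KO animal exceeded every WT animal (25%, against 9.41% of all genes), and for 3 every KO animal was lower (7.5% against 10.5%). The median log2 fold change of the 40 was 0.23, with 28 higher and 12 lower, beside 0.02 over all genes tested.

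These counts moved with the scaling and with single animals. When values were set per read counted on genes in place of the size factor, an option added after the data were seen, the median of all genes was 0.22 and that of the 40 genes 0.43, members without overlap became 16 higher (40%, against 18.1% of all genes) and 2 lower (5% against 5.37%). At unadjusted p under 0.05, 8 of the 40 were higher and 0 lower, beside 1319 of 14223 genes in either direction. The number at unadjusted p under 0.05, 5 with all animals, was 3 without KO animal 1, 3 without KO animal 2, 2 without KO animal 3, 2 without WT animal 3 and 6 without WT animal 1. Leaving out WT animal 1, the members with no overlap were 15 higher and 3 lower, beside 14.7% and 17.5% of all genes.

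**Figure D3:**
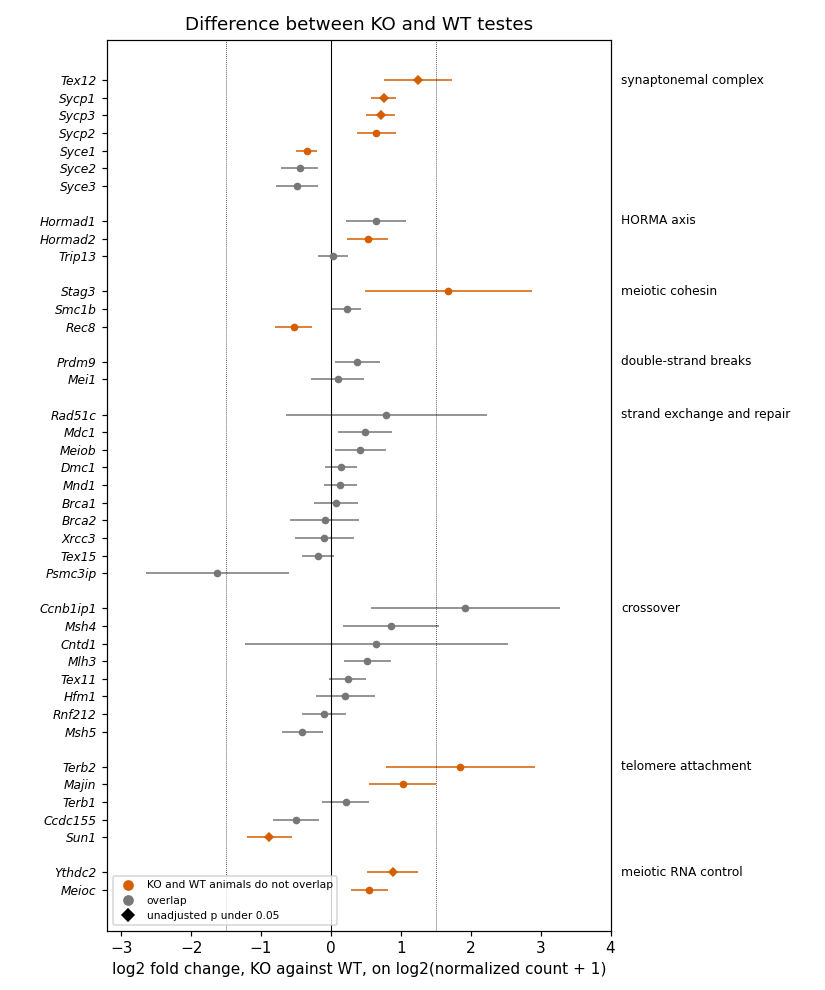
Log2 fold change of KO against WT on log2(normalized count + 1) with its standard error for the 40 meiotic genes tested, by role; orange marks genes whose 3 KO and 3 WT animals do not overlap, diamonds an unadjusted p under 0.05, dotted lines the fold change cutoff of 1.5. The synaptonemal complex genes split into 4 above and 3 below 0.

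The synaptonemal complex genes went 2 ways. The lateral elements (Sycp2 and Sycp3), the transverse filament (Sycp1) and the central element gene Tex12 were higher in every KO than in every WT animal, whereas the central element genes Syce1, Syce2 and Syce3 had lower means. Sycp1, whose protein spans the gap between homologs, had 1226, 984 and 1001 in WT, 1966, 454 and 1097 in Het and 2025, 1826 and 1579 in KO. The KO animals were close to each other and clear of WT, while the Het animals ran from 454 to 1966. KO exceeded WT by a log2 fold change of 0.76 (SE 0.18), with limma's unadjusted p = 0.00495 and adjusted p = 0.583.

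Sycp3, a core of the chromosome axis and of the lateral element, had 531, 455 and 674 in WT, 1364, 569 and 759 in Het and 976, 871 and 845 in KO. Het animal 1 was the highest of all 9, and KO and WT did not overlap. Between KO and WT the log2 fold change was 0.71 (SE 0.20; limma unadjusted p = 0.0118, adjusted p = 0.610). Sycp2, which binds Sycp3 in the lateral element, had 1548, 755 and 1183 in WT, 1434, 831 and 1227 in Het and 1839.8, 1584 and 1830.3 in KO, so the 3 KO animals stood above the other 6. Against Het, its log2 fold change in KO was 0.62 (SE 0.22; limma unadjusted p = 0.0304, adjusted p = 0.973). Without Het animal 2 this value was 0.40 (limma unadjusted p = 0.0530, adjusted p = 0.928).

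Tex12, which forms the central element's long fibres together with Syce2, was far lower in count, at 9.9, 37.6 and 15.4 in WT, 64.2, 30.7 and 23.3 in Het and 41.2, 45.5 and 46.5 in KO. The KO values were tight, and WT animal 2 came near them. KO differed from WT by a log2 fold change of 1.25 (SE 0.49; limma unadjusted p = 0.0417, adjusted p = 0.610). Without WT animal 1 this value was 0.85 (limma unadjusted p = 0.0862, adjusted p = 0.572). With all animals the unadjusted p was 0.0672 by edgeR and 0.0705 by DESeq2. Syce1, a central element protein that links to Sycp1, ran the other way at 2502, 2345 and 2093 in WT, 1854, 2074 and 1905 in Het and 1921, 1666 and 1867 in KO. Every WT animal was above every Het and every KO animal. Syce2 had 1305, 1108 and 966 in WT, 958, 859 and 844 in Het and 1009, 583 and 942 in KO, and Syce3, which also builds the central element, ran from 567 to 1389. When values were set per read, Syce1 and Syce2 no longer separated Het from WT, and Syce1 still separated KO from WT.

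The promoters of the 4 genes outside the RNA control group with an unadjusted p under 0.05 in KO against WT are shown. Sycp1, Sycp3 and Tex12 were higher at that p and Sun1 was lower, and none of them was called. Each run holds 250 bases before and 50 after the transcription start in RefSeq on GRCm38.p6, 5′ to 3′ on the gene's strand. Sycp1 lies at chr3:102936051-102936350 (minus), Sycp3 at chr10:88459337-88459636 (plus), Tex12 at chr9:50561219-50561518 (minus) and Sun1 at chr5:139200387-139200686 (plus). The annotated genes reach over chr3:102818499-102936100, chr10:88459569-88473236, chr9:50556819-50561325 and chr5:139200637-139249840 in the same order. Capitals mark matches on either strand to TTCCCGC (E2F), CACGTG (E-box), CNCCTCAG (reported for STRA8, the inducer of meiosis) and CCAAT (NF-Y).
Sycp1: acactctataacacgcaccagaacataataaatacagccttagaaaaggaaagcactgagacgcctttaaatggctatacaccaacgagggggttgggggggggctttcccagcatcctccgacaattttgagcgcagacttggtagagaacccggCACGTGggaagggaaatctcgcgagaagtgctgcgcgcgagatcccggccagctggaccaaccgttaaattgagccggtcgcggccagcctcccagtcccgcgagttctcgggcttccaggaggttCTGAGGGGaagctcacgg
Sycp3: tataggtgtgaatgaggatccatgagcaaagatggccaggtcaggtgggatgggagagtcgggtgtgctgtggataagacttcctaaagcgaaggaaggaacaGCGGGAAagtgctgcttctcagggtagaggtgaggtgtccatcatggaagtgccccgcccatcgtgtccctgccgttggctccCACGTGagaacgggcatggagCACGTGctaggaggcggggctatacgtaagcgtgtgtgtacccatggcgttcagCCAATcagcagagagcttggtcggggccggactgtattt
Tex12: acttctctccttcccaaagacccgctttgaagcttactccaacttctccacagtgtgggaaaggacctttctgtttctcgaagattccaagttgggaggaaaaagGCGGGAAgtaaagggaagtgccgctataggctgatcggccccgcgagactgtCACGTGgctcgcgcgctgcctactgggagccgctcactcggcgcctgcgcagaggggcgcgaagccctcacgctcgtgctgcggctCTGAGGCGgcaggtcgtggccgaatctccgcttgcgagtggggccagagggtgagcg
Sun1: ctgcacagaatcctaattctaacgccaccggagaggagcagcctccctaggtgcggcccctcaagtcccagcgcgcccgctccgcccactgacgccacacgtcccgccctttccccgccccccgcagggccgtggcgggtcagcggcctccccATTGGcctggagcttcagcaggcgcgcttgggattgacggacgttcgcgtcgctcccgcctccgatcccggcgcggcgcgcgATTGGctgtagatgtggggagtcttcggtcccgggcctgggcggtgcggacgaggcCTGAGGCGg
Tex12 holds an E2F, an E-box and a STRA8 match in 1 window, Sycp1 an E-box and a STRA8 match, Sycp3 an E2F, a pair of E-box matches and a CCAAT, and Sun1 a STRA8 match and a pair of CCAAT matches.

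A promoter was found for 36 of the 44 genes, 43 promoters in all, and their letters were compared with all 32851 promoters of the same 300 bases. The motif TTCCCGC occurred in 15 of the 43 (34.88%) and in 4.6% of all promoters. The genes with it were Brca2, Hormad1, Mdc1, Meioc, Msh5, Prdm9, Rad51c, Rec114, Rnf212, Smc1b, Stag3, Syce2, Sycp3 and Tex12. The E-box CACGTG occurred in 23.26% against 7.15%, and CNCCTCAG in 18.6% against 7.942%. Member promoters were also richer in CpG, with a median of 19 CpG against 7 and 60% against 52.67% G and C. Among promoters with at least 10 CpG the shares were 40.54% against 9.201% for TTCCCGC, 27.03% against 10.87% for CACGTG and 21.62% against 9.327% for CNCCTCAG. CCAAT occurred in 48.84% against 37.41%, TATAAA in 6.977% against 13.62%, and CAGTTG, the MYB motif, in 4.651% against 13.65%. Promoters of 1 gene can overlap, and a match describes letters and not a bound site.

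**Figure D4:**
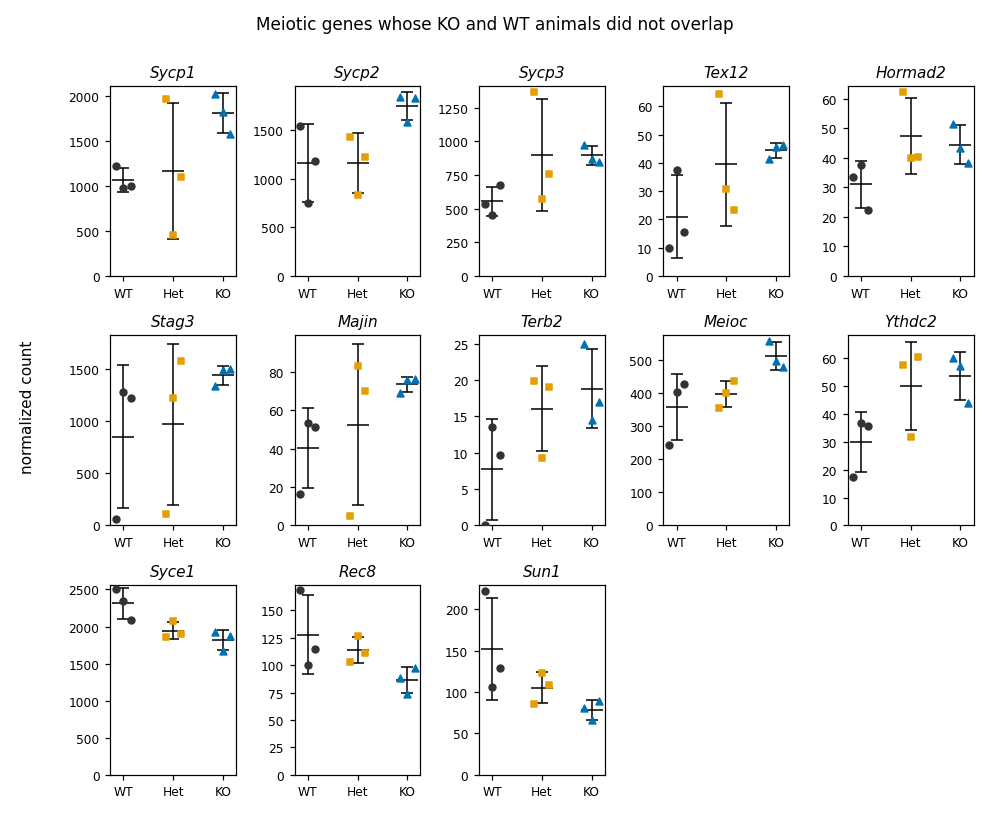
Normalized counts in each animal, with the mean ± SD of 3, for the 13 meiotic genes whose KO and WT animals did not overlap. Syce1, Rec8 and Sun1 are lower in KO and the other 10 are higher. The Het animals mostly lie across both ranges.

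Of the axis genes, Hormad2, a HORMA domain protein that marks unsynapsed axes, had 33.4, 37.6 and 22.2 in WT, 62.4, 40.0 and 40.2 in Het and 51.5, 43.5 and 38.4 in KO. All 6 mutant animals exceeded the 3 WT animals, by less than 1 count between the lowest KO and the highest WT. Hormad1, which recruits the break machinery to the axis, had 43.3, 108 and 106 in WT, 164, 86.6 and 108 in Het and 168, 106 and 108 in KO. Its genotypes overlapped, with WT animal 1 the lowest. Trip13, the ATPase that removes HORMA domain proteins from synapsed axes, varied little, from 47.5 to 73.5 over the 9 animals.

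Meiotic cohesin holds sister chromatids and forms the base of the axis. Rec8, its meiotic kleisin, had 168, 100.3 and 115 in WT, 103, 127 and 111 in Het and 88.5, 73.5 and 97.4 in KO. The 3 KO animals lay below the other 6, although set per read they overlapped WT. Smc1b, its meiotic SMC subunit, had 1341, 966 and 1381 in WT, 1632, 895 and 1284 in Het and 1644, 1265 and 1369 in KO, with overlap throughout. Stag3, its meiotic STAG subunit, had 57.0, 1277 and 1217 in WT, 105, 1218 and 1580.0 in Het and 1336, 1487 and 1494 in KO. WT animal 1 and Het animal 1 thus lay over 10-fold below the other animals of their genotype, and Ldhc was low in the same animals. The other kleisin, Rad21l, had no read, which allows up to 3.71 normalized counts for counting error alone. Its row is the 1 member row without a merged StringTie locus, a kind of row with any signal in 35.0% of 15392 cases against 85.0% of merged rows. The part of this in the 0 was not tested.

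The genes of double-strand break formation gave few reads. Mei4 and Rec114, partners in the complex that places breaks, reached at most 4.29 and 11.6 normalized counts. Prdm9, the methyltransferase that sets break hotspots, had 21.0, 12.5 and 18.3 in WT, 10.4, 18.6 and 14.8 in Het and 20.6, 23.2 and 23.2 in KO, so every KO animal exceeded every Het animal. Mei1, also required for break formation, had 43.3, 18.3 and 29.9 in WT, 29.3, 27.0 and 0 in Het and 25.8, 37.7 and 30.4 in KO. Spo11, the transesterase that makes the break, was split within every genotype, with 7.43, 2.89 and 71.4 in WT, 5.67, 95.9 and 6.35 in Het and 3.44, 129.6 and 0.894 in KO. One animal of each genotype was at 71.4 or above and the other 6 at 7.43 or below.

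Strand exchange and repair genes were mostly level. Dmc1, the meiotic recombinase, ran from 35.7 to 55.7 over the 9 animals, Mnd1, its cofactor, from 25.1 to 40.6, Brca1, which recruits repair factors, from 28.9 to 54.8 and Xrcc3, a repair gene, from 9.65 to 25.5. Tex15 ran from 202 to 386, Meiob, which binds single-stranded DNA, from 65.2 to 169, and Mdc1, which spreads the damage response over the sex chromosomes, from 161 to 475. None of the 10 genes of this group separated KO from WT, and 6 were higher and 4 lower in the mean log2 value. Psmc3ip, the partner of Mnd1, had 521, 687 and 191 in WT, 33.1, 583 and 64.6 in Het and 609.8, 43.5 and 85.8 in KO. Rad51c, also a repair gene, had 31.0, 89.7 and 3.86 in WT, 109, 104 and 83.6 in Het and 105, 94.8 and 6.26 in KO. Brca2, which acts in homologous repair, had 86.7, 162 and 202 in WT, 269, 184 and 62.4 in Het and 91.0, 104 and 248 in KO. In these 3 genes low animals occurred in more than 1 genotype.

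Crossover genes likewise gave no separation of KO from WT. Hfm1, a helicase of the crossover pathway, had 192, 83.0 and 71.4 in WT, 193, 119 and 99.5 in Het and 157, 106 and 105 in KO. Mlh3, of the nuclease that resolves crossovers, ran from 71.8 to 161, Msh5, of the clamp that stabilises crossover intermediates, from 16.1 to 43.3, Rnf212, which marks crossover sites, from 17.4 to 28.6, and Tex11, the only member on the X chromosome, from 41.5 to 79.4. Msh4, the partner of Msh5, had 7.43, 44.4 and 46.3 in WT, 50.1, 49.4 and 52.9 in Het and 49.8, 45.5 and 44.7 in KO, so that a single WT animal was low and the other 8 lay within 44.4 to 52.9. Ccnb1ip1, a ubiquitin ligase that limits crossover sites, had 0, 27.0 and 31.9 in WT, 31.2, 40.0 and 30.7 in Het and 41.2, 41.6 and 26.8 in KO, with the same WT animal at 0. Cntd1, a cyclin-like protein needed for crossovers to mature, had 4.95, 14.5 and 26.1 in WT, 0, 7.45 and 19.0 in Het and 67.9, 0 and 139 in KO, so KO animals had the highest values and, like Het animal 1, a 0.

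Telomere attachment genes tie chromosome ends to the nuclear envelope so that homologs can move and pair. Sun1, the inner membrane protein of the bridge to the cytoskeleton, had 222, 106 and 128 in WT, 85.0, 123 and 108 in Het and 80.7, 65.8 and 89.4 in KO. Every KO animal was below every WT animal, and Het lay between in the mean. From WT to KO its log2 fold change was -0.88 (SE 0.33; limma unadjusted p = 0.0338, adjusted p = 0.610). Without WT animal 1 it was -0.58 (limma unadjusted p = 0.0440, adjusted p = 0.559). Ccdc155, the outer membrane partner of Sun1, had 499, 252 and 238 in WT, 146, 272 and 201 in Het and 216, 241 and 203 in KO, with overlap.

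Majin, Terb1 and Terb2 encode the proteins that join telomeres to the inner nuclear membrane. Majin had 16.1, 53.1 and 51.2 in WT, 4.72, 82.9 and 69.8 in Het and 68.7, 75.5 and 76.0 in KO. Terb1 had 102, 103 and 99.4 in WT, 128, 103 and 115 in Het and 181, 76.4 and 118 in KO. Terb2 had 0, 13.5 and 9.66 in WT, 19.8, 9.31 and 19.0 in Het and 24.9, 14.5 and 17.0 in KO. Majin and Terb2 separated KO from WT without a test below 0.05, and Terb1 separated Het from WT by less than 1 count.

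Meioc and Ythdc2 form a complex that clears mitotic transcripts at meiotic entry. Meioc had 244, 403 and 427 in WT, 355, 399 and 435 in Het and 558, 496 and 477 in KO, and the 3 KO animals stood above the other 6. Against Het, its log2 fold change in KO was 0.37 (SE 0.15; limma unadjusted p = 0.0490, adjusted p = 0.973). Ythdc2, the RNA helicase of the pair, had 17.3, 36.7 and 35.7 in WT, 57.6, 31.7 and 60.3 in Het and 60.1, 57.1 and 43.8 in KO. KO and WT did not overlap, with a log2 fold change of 0.88 (SE 0.36; limma unadjusted p = 0.0482, adjusted p = 0.610). Without WT animal 1 this value was 0.54 (limma unadjusted p = 0.0623, adjusted p = 0.570). Het animal 2 stayed within the WT range.

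Between Het and WT, none of 40 members was called by limma, edgeR or DESeq2, and none had an unadjusted p under 0.05 in any of these. Over all 14216 genes limma called 0 (0%), with 475 at unadjusted p under 0.05, 1.46% higher and 1.89% lower, while edgeR called 0 and DESeq2 31. Hormad2, Msh4 and Terb1 were higher in every Het than in every WT animal (7.5% of members, against 6.76% of all genes), and Syce1 and Syce2 were lower (5% against 6.49%). Without Het animal 2, WT animal 2 or WT animal 3 the number of members at unadjusted p under 0.05 was 2 in each case. The median log2 fold change was 0.05, beside 0.01 over all genes. This median was -0.01 without Het animal 1, -0.003 without Het animal 3 and 0.18 without Het animal 2, so its sign rests on single animals. Set per read, 5 members were higher without overlap (12.5%, against 11.6% of all genes) and 0 lower (against 3.10%).

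Between KO and Het, again 0 of 40 members was called, by limma, edgeR or DESeq2, with 8 of 14343 genes (0.0558%) called by limma. Over the same genes edgeR called 7 and DESeq2 38. Sycp2 and Meioc were higher at unadjusted p under 0.05 (5% of members against 1.74% of all genes), and no member was lower (background 1.82%). Meioc, Prdm9 and Sycp2 were higher in every KO than in every Het animal (7.5% against 5.12%) and Rec8 was lower (2.5% against 4.9%). Set per read, the numbers were 3 higher (7.5% against 6.16%) and 2 lower (5% against 3.84%). The members at unadjusted p under 0.05, 2 with all animals, were 0 without KO animal 1, Het animal 2 or Het animal 3, 1 without KO animal 3 and 4 without Het animal 1. KO against WT and KO against Het share the KO animals, so these counts are not independent.

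Large swings between animals of 1 genotype were common. In 11 members the highest animal of a genotype exceeded the lowest more than 4-fold, with low values set to the detection limit. They were Spo11, Cntd1, Rad51c, Stag3, Psmc3ip, Majin, Mei1, Ccnb1ip1, Msh4, Sycp1 and Brca2. This is 26.8% of the 41 members with a mean of at least 10, against 26.4% of 14165 genes with such a mean, so the meiotic genes were no more variable than the background. WT animal 1 held the lowest value in 10 of the 41 (24.4%) and the highest in 9 (22.0%), near its shares over all genes. Het animal 1 was the highest in 11 (26.8% against 16.9%). KO animal 1 was the highest in 8 (19.5% against 7.26% of all genes) and the lowest in 0 (0% against 7.9%).

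**Figure D5:**
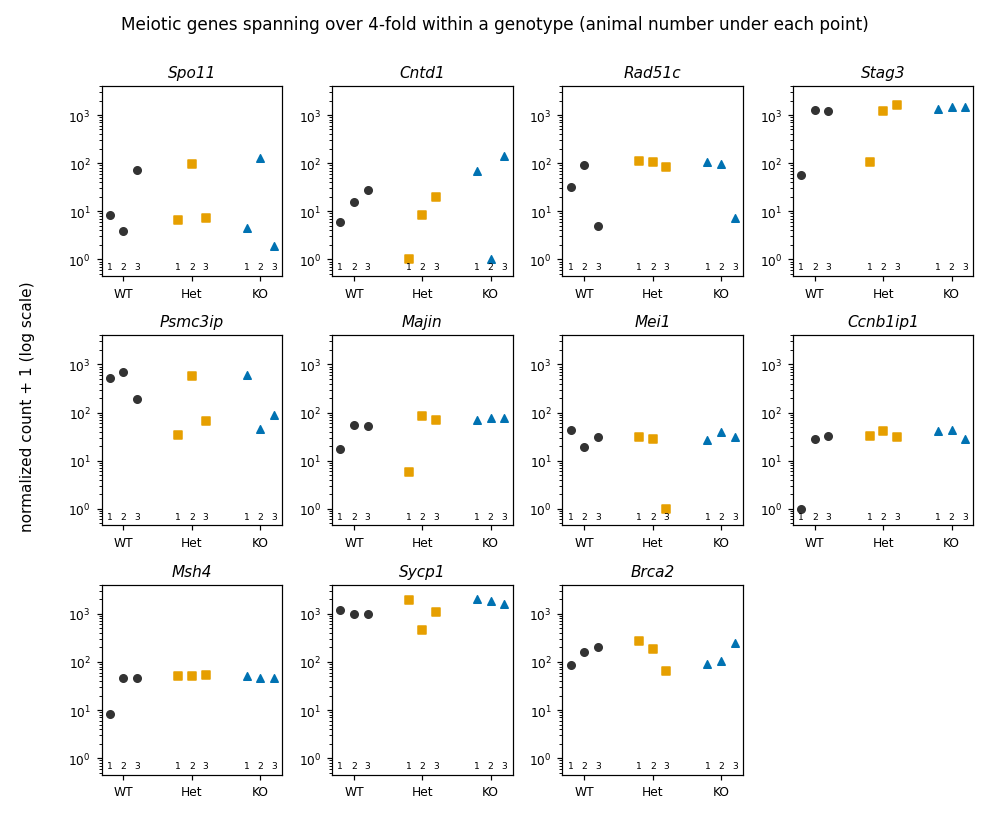
Normalized counts plus 1 (log axis) in each of 9 animals for the 11 meiotic genes that spanned over 4-fold within a genotype; the digit under a point is the animal's number. Stag3, Msh4 and Ccnb1ip1 are low in WT animal 1, Stag3 and Majin in Het animal 1, and Spo11 is high in 1 animal of each genotype.

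Genes that lie within 5000 bases were listed for these 11, since a read may be assigned to a neighbour, and 9 had at least 1. Parp2 starts 108 bases from Ccnb1ip1 and was at 0 in WT animal 1, where Ccnb1ip1 was at 0, and at 49.2 to 97.3 in the other 8. Rabggtb, 1148 bases from Msh4, had 2.48 in WT animal 1 and 36.6 to 74.6 elsewhere, again low where the member was low. Gpc2, 234 bases from Stag3 on the other strand, had 91.6 in WT animal 1 and 90.7 in Het animal 1, the animals with little Stag3, but also 88.9 in Het animal 3 and 110.3 in KO animal 2, where Stag3 was high. Becn1, which overlaps Cntd1 on the other strand, had 111, 959 and 272 in WT, 103, 868 and 57.1 in Het and 1079, 639 and 1001 in KO. Mlx, which overlaps Psmc3ip, stayed at 8.38 to 12.0, and Tex14, 110 bases from Rad51c, at 128 to 302. The part of read assignment in these swings was not tested.

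A further 60 genes of meiotic prophase, among them ubiquitous cohesin subunits, general repair proteins and meiotic kinases, were taken as a comparison list. Between KO and WT, 0 of the 53 tested were called by limma, against 0.0352% of all genes. Their median log2 fold change was 0.20, with 35 higher and 18 lower. At unadjusted p under 0.05, 4 were higher and 3 lower, against 3.04% and 5.03% of all genes. Those 4 included Dazl, the RNA-binding protein that licenses germ cells for meiosis, at 0.77 (SE 0.28; limma unadjusted p = 0.0306, adjusted p = 0.610). They also included 4930447C04Rik, a gene of the central element, at 0.90 (SE 0.28; limma unadjusted p = 0.0172, adjusted p = 0.610). The others were Rad51ap2 at 0.95 (SE 0.35; limma unadjusted p = 0.0342, adjusted p = 0.610) and Stag1 at 0.48 (SE 0.18; limma unadjusted p = 0.0399, adjusted p = 0.610). Stra8, the inducer of meiotic entry, was lower at -0.89 (SE 0.33; limma unadjusted p = 0.0346, adjusted p = 0.610). The other 2 of the 3 lower were Rad51b at -0.78 (SE 0.28; limma unadjusted p = 0.0299, adjusted p = 0.610) and Mael at -3.12 (SE 1.17; limma unadjusted p = 0.0360, adjusted p = 0.610). Mael had 3313, 5678 and 4748 in WT, 5079, 4362 and 47.6 in Het and 123, 3496 and 314 in KO, with overlap. Without overlap between KO and WT, 10 of the 53 were higher and 3 lower, against 9.41% and 10.5% of all genes. Stra8 also stands among the spermatogonia markers, and Hspa2, Mybl1, Ccna1 and Tcfl5 among the spermatocyte markers. Between Het and WT none of 54 had an unadjusted p under 0.05, against 1.46% higher and 1.89% lower over all genes. Between KO and Het, Atr and Atm, the damage kinases, were higher among 53 at that p, against 1.74% of all genes. None of the 53 was lower, against 1.82%. Of the cell type lists, the 10 spermatocyte markers, Ldhc included, had a median log2 fold change of 0.17 in KO against WT with none at unadjusted p under 0.05, the 8 round spermatid markers -0.29 with 2 lower, and the 4 elongating spermatid markers -0.58 with 2 lower.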

How the data were processed

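RNA-seq of 9 mouse testes, 3 per genotype, was analysed from 1 table. The authors trimmed reads with Trim Galore 0.4.5, aligned them with HISAT2 2.1 to GRCm38, counted genes with StringTie 1.3.3 and its script that derives counts from coverage, removed pseudogenes, and deposited a signal per gene, namely the count divided by a DESeq2 size factor. Of the values, 100% were whole multiples of 1 count (tolerance 0.01), so the whole counts were recovered, 3375546 to 4287335 on genes per library. Being derived from coverage, these counts estimate reads and are not reads observed one by one. The word reads stands for them in the text. For 43 of the 44 genes the row is a StringTie locus, which can join overlapping transcripts. No strand setting is given in the sources used here, so antisense overlaps may share reads.

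Groups follow the labels, and each numbered sample of a genotype was taken as a separate animal. The members and lists were chosen with earlier results of these data known. Differences were tested with limma 3.58.1 (empirical Bayes with trend, R 4.3.3) on log2(value + 1), for genes at 10 or more in at least 3 of the samples compared, using the 6 samples of each comparison, with Benjamini-Hochberg adjustment over all genes tested. Called genes had an adjusted p under 0.05 and an absolute log2 fold change over 1.5. Fold changes on this scale understate those of low genes. edgeR 4.0.16 and DESeq2 1.42.0 were run on the recovered reads. Scripts were tested on simulated data. All members are named with their range. Every sample's value is given for the highest of each role, for members with an unadjusted p under 0.05 or without overlap in a comparison, and for those spanning over 4-fold within a genotype. Fold changes are given for members with an unadjusted p under 0.05. Comparison genes named were chosen after their values were seen. Gene positions come from GENCODE on GRCm38, promoters from RefSeq on GRCm38.p6.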

Additional observations from a re-analysis of the deposited data

How the results depend on the processing

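In all, 329 values were recomputed, covering counts of genes, medians and fold changes. The number of meiotic genes called was 0 under all 17 alternative settings in each comparison. The fold changes of the members named with a p kept their sign, and the median of Het against WT, 0.05, ran from -0.01 to 0.18 without single animals. In KO against WT, the genes called among all tested, 5 with limma, were 96 with DESeq2, 3 with all 9 samples in 1 fit, 0 with the replicate block, and 0 to 49 without single animals (49 without WT animal 1, 11 without KO animal 1). Meiotic genes with an unadjusted p under 0.05 were 3 with edgeR, 3 with DESeq2, 8 with values per read, and 2 to 6 without single animals. Their median log2 fold change was 0.43 with values per read. Members with no overlap were 16 higher with values per read, and 11 to 15 higher and 3 to 6 lower without single animals. The shares over all genes were 18.1% higher with values per read, and 12.8% to 15.2% higher and 14.7% to 17.5% lower without single animals. In Het against WT, all genes called were 31 with DESeq2, 1 with TMM factors, 3 with no filter on low values, 1 with at least 10 in every sample, 2 with a pseudocount of 5, 3 with all 9 samples in 1 fit and 0 to 3 without single animals, and members with an unadjusted p under 0.05 were 0 to 2 without single animals. In KO against Het, all genes called were 38 with DESeq2, 1 with at least 10 in every sample, 4 with all 9 samples in 1 fit, 0 with the replicate block and 0 to 39 without single animals (39 without Het animal 2). Members with an unadjusted p under 0.05 were 0 with all 9 samples, 1 with the replicate block and 0 to 4 without single animals. The cause of these moves was not tested.

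Sycp1 in KO against WT kept an unadjusted p under 0.05 in 15 of 16 alternatives, with adjusted p from 0.0761 to 0.814 (limma, edgeR or DESeq2). Sycp3 did so in 15 of 16, Sun1 in 11 of 16, Tex12 in 8 of 15 and Ythdc2 in 6 of 16. In KO against Het, Sycp2 did so in 11 of 16 and Meioc in 7 of 16. Same-numbered animals did not deviate together in every pair of any comparison. The correlations over 14165 genes were -0.12, -0.05 and -0.04 for KO and WT, 0.17, 0.20 and -0.02 for Het and WT and -0.14, -0.12 and 0.08 for KO and Het, so the numbers were not taken as pairs. At this depth 3 reads limit what can be seen of Mei4 and Rec114.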
